A study of Mus musculus with 4 samples.

Results

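The genes described here encode the subunits of RNA polymerase II, the enzyme that transcribes messenger RNA, and of Mediator, the coactivator that links it to transcription factors. Members were chosen by name alone, as the rows of the expression table called Polr2a to Polr2m, Med with a number and an optional l, or Ccnc, Cdk8 and Cdk19. No expression value entered the rule, although members were chosen with earlier results of these data known. The rule found 46 genes among 46517 rows, of which 13 belong to the polymerase and 33 to Mediator.

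RNA had been sequenced from LSK cells, a sorted mouse population without lineage antigens and with the surface markers Sca-1 and c-Kit, in which haematopoietic stem cells and early progenitors are found. The mice were C57BL/6 animals aged 8 to 10 weeks. The Setd2f/f group (2 libraries) has wild-type Setd2 and the Setd2D/D group (2 libraries) has Setd2 knocked out. The sources used here do not give the Cre line, the deleted exons or how many animals make up a library, and p-values therefore reflect the spread of these libraries alone, possibly a technical one.

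Polymerase II is built around the large subunit Polr2a, whose long repetitive tail is phosphorylated as transcription starts and as it goes on, and Polr2b, with which it forms the active site. Setd2 binds that phosphorylated tail and marks histone H3 in transcribed gene bodies. Mediator has a head and a middle that contact the polymerase, a tail that contacts transcription factors, and a separable kinase module of Cdk8 or Cdk19, cyclin C, Med12 and Med13 that can keep Mediator and polymerase apart. The study's title links Setd2 to limits on polymerase II elongation. The comparison made here was whether transcripts of the machinery itself differed between genotypes.

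Levels are in TPM (a share of all transcripts in a library), in which each gene's reads are divided by transcript length and every library is scaled to the same total. Levels of different genes can therefore be set side by side. The table holds no read totals, so the depth of each library is unknown; between 17185 and 20192 genes were above 0, with Setd2D/D replicate 1 at the low end. That library also correlated less with the others (Pearson r from 0.91 to 0.913 across 14755 genes, which are not independent) than the Setd2f/f libraries did with each other (r = 0.959). Setd2 itself gave 78.9 and 68.0 TPM with the intact gene and 43.4 and 49.5 TPM in the knockout, values for the whole gene that also count exons outside a deletion. Kit, which encodes c-Kit, gave 224 and 249 TPM against 301 and 285, and Ly6a, which encodes Sca-1, 128 and 124 against 46.5 and 80.6. Summed TPM over 8 LSK markers was 1792 and 1713 in Setd2f/f and 1386 and 1291 in Setd2D/D, with both knockout libraries lowest for 5 genes and highest for 1. Over 12 erythroid markers it was 576 and 454 against 1044 and 972, with all 10 that were tested wholly higher, and over 8 B lineage markers 597 and 325 against 193 and 287, with 6 wholly lower. Over 10 granulocyte-monocyte markers it was 2174 and 2641 against 2940 and 3999, with 4 wholly higher and 3 wholly lower, and over 9 lineage antigens it was 85.6 and 50.7 against 38.2 and 50.5, of which 4 were at 0 in Setd2D/D replicate 1. Shifts in the cell mixture and in RNA per cell cannot be told apart in bulk samples, and their part in the results below was not tested.

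All 46 members were detected in all 4 libraries and passed the filter (1 TPM or more in 2 or more libraries). Mean levels over the 4 libraries ran from 7.81 TPM for Med31 to 197 TPM for Polr2m, with a median of 36.2. None of the 46 passed limma, a linear model with variances pooled across genes, at an adjusted p (Benjamini-Hochberg over 14755 genes) of 0.05. The smallest adjusted p among them was 0.348. Over all genes 0.0678% passed (10 genes, and 0 when any 1 library was left out). At an unadjusted p under 0.05, 3 members passed, or 6.52%, against 11.2% of all genes; these were Med28, Ccnc and Polr2l, all lower in Setd2D/D, a direction in which 6.99% of all genes passed. That count was 0 without Setd2f/f replicate 1 or 2, where 3.75% and 4.58% of all genes passed. It was 4 (8.7%, against 11.1% of all genes) without knockout replicate 1 and 10 (21.7%, against 19.8%) without knockout replicate 2. In the authors' deposited table, 0 of the 46 members were past an FDR of 0.05, where 3.15% of its rows were, and 7 members, or 15.2%, had an unadjusted p under 0.05, against 11.2% of rows. Of the 7, Med17 and Med20 were higher in Setd2D/D and Med16, Med19, Med28, Polr2f and Polr2l lower.

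Most members lay somewhat lower in the knockout. The log2 change, Setd2D/D minus Setd2f/f on the log2(TPM + 1) scale, was below 0 for 35 of the 46 members (76.1%) and for 57.9% of all genes tested. The median was -0.17 over the members, -0.06 over all genes and -0.08 over 10094 protein-coding genes averaging 5 TPM or more, of which 62.2% were below 0. Both Setd2D/D libraries lay below both Setd2f/f libraries for 20 members, or 43.5% (27.6% of all genes and 31.1% of those coding genes), and above them for 5 members, or 10.9% (16.8% and 14.4%). Rescaling the libraries by median-of-ratios factors left 31 members below 0 and gave 15 members wholly lower and 7 wholly higher. The median was then -0.113 over the members and -0.008 over all genes. The shares over all genes above are without rescaling, and those after it are not given here. With fewer libraries to separate, the number wholly higher went from 5 to 10 when replicate 1 of the knockout was left out, to 8 when either replicate 2 was, and to 7 without Setd2f/f replicate 1. The number wholly lower rose as well, from 20 to between 26 and 29. Shares over all genes with a library left out are not given here.

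**Figure D1:**
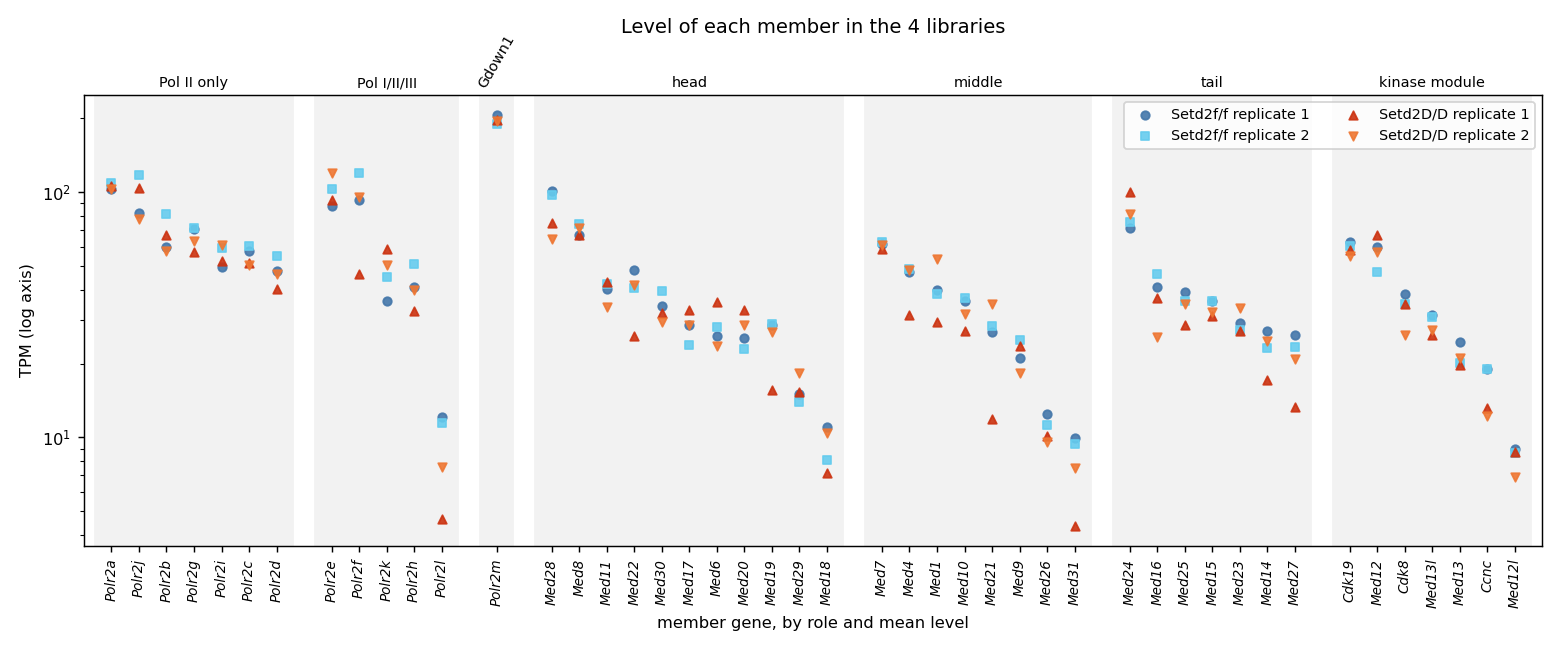
TPM of each of the 46 members (log axis) in the 4 libraries, 1 point per library, ordered by role and mean level; Gdown1 is Polr2m. Polr2m stands at the top near 197 TPM, and the triangles of Setd2D/D replicate 1 fall furthest below the rest for Med21, Polr2f, Med31 and Polr2l.

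The stretches just before the start of transcription are shown for the 3 members with an unadjusted p under 0.05, for Polr2a, whose level hardly differed, and for Cdk8, the partner of cyclin C. They are RefSeq sequences on GRCm38.p6, written 5′ to 3′ on the gene's own strand and kept to bases outside annotated exons. Capitals mark 3 motifs on either strand: TATAAA of the TATA box, the CCAAT box, and GGGCGG of the GC box. Matches were marked at any distance from the start site, and whether they act as such elements was not tested. In Med28 a TATAAA and a reversed CCAAT overlap.
Polr2a chr11:69758638-69758753, minus strand: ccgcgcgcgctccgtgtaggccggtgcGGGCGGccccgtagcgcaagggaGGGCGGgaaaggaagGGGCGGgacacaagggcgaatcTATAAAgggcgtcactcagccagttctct
Polr2l chr7:141475154-141475239, minus strand: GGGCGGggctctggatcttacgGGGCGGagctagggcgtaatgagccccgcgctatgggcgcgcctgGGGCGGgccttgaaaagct
Med28 chr5:45520109-45520228, plus strand: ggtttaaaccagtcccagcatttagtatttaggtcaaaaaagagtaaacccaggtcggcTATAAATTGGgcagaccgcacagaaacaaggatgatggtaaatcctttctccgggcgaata
Ccnc chr4:21727581-21727700, plus strand: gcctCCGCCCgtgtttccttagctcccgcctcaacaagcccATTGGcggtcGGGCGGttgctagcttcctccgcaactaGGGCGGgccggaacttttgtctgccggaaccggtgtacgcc
Cdk8 chr5:146231130-146231229, plus strand: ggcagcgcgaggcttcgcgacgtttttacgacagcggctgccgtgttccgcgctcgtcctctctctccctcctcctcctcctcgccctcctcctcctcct

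The motifs of the members' promoters were set beside those of other genes. A window of 120 bases before the start site was found for 38 of the 46 members and for 7866 protein-coding genes averaging 5 TPM or more, out of 27025 windows in all. Both strands were searched, and a match at any position in the window was counted. GGGCGG, the GC box, was present in 55.3% of the members' windows, 51.5% of those of the expressed genes and 26.9% of all windows. CCAAT was present in 26.3%, 26.4% and 22.1%, and CCGGAAG, an ETS-type motif, in 13.2%, 12.2% and 5.2%. TATAAA was found in 2 members, Polr2a and Med28 (5.3%), in 2.1% of the expressed genes and in 6.8% of all. CACGTG was found in 1 member, Med17 (2.6%), against 5.5% and 3.6%, while AAGATGGC of YY1, TGACGTCA of CREB and the NRF1 palindrome were found in 0 members (1.2%, 2.4% and 1.4% of the expressed genes). The median GC content was 62.5% and 64.2%. Among the promoters shown, that of Med28 is the poorest in GC, at 43.3%, and those of Polr2a, Polr2l, Ccnc and Cdk8 lie between 65.0% and 69.8%. Med28, Ccnc and Polr2l hold no motif that is present in all 3.

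The core subunits found only in polymerase II spanned the narrowest range of changes among the role groups, from -0.24 to 0.07. Polr2a (ENSMUSG00000005198, chromosome 11, 69733997 to 69758637), the catalytic subunit with the repetitive tail, was at 103 and 109 TPM in Setd2f/f libraries against 106 and 103 in Setd2D/D libraries. The groups overlapped, and the limma log2 change was -0.03 with a 95% interval from -0.30 to 0.25. Polr2b (chromosome 5, 77310147 to 77349324), the second largest subunit, was at 59.9 and 81.9 TPM in Setd2f/f libraries against 66.9 and 57.7 in Setd2D/D libraries. Its spread in Setd2f/f exceeded the difference of the means, and its log2 change of -0.17 (SE 0.20) turned to 0.05 without Setd2f/f replicate 2. The change of Polr2a turned to 0.02 without that library and lay between 0.02 and 0.03 after any rescaling.

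Polr2c, Polr2g and Polr2d were lower in both knockout libraries by a small margin. Polr2c, which with Polr2j forms the assembly platform of the enzyme, was at 57.5 and 60.5 TPM in Setd2f/f libraries against 51.5 and 50.6 in Setd2D/D libraries. Polr2g, part of the stalk that reaches toward emerging RNA, was at 70.8 and 71.7 TPM against 57.0 and 63.5. Its stalk partner Polr2d was at 47.9 and 54.9 TPM against 40.4 and 46.2. In each of these the 2 Setd2D/D libraries lay below both Setd2f/f libraries, with ratios of the mean TPM of 0.866, 0.846 and 0.843 and limma adjusted p-values of 0.571, 0.528 and 0.589. The remaining subunits of this group, Polr2i (log2 change 0.07) and Polr2j (-0.13), had overlapping libraries. Over the 7 genes the median log2 change was -0.17, with 0 past limma or the authors' FDR; the median was 0.02 without Setd2f/f replicate 2 and -0.07 without Setd2D/D replicate 2.

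The subunits shared by polymerases I, II and III differed more among themselves. Polr2l (ENSMUSG00000038489, chromosome 7, 141471860 to 141475132), a small zinc-binding subunit, was at 12.1 and 11.4 TPM in Setd2f/f libraries against 4.66 and 7.55 in Setd2D/D libraries. Both knockout libraries were lower, at 0.520 of the Setd2f/f mean, the lowest ratio among the 46 members. The limma log2 change was -0.87 (SE 0.30, unadjusted p = 0.0363, adjusted p = 0.423), and the value in the authors' deposited table was -0.89 (FDR 0.414). The limma value was -0.57 without Setd2D/D replicate 1. Polr2k (chromosome 15, 36174010 to 36177010), another small zinc-binding subunit, was the other way round, at 36.2 and 44.9 TPM in Setd2f/f libraries against 58.9 and 50.7 in Setd2D/D libraries. Its log2 change of 0.43 was the highest of the 46 members over the 4 libraries, with an adjusted p of 0.463 by limma. Without Setd2f/f replicate 1 it was 0.28, below Med20 (0.42) and Med12 (0.39). A pseudogene row named after it, Polr2k-ps, was at 5.84 and 3.77 TPM in Setd2f/f libraries against 0 and 4.45 in Setd2D/D libraries. Reads may have been split between the gene and the pseudogene, which was not tested.

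Polr2h was at 41.0 and 50.9 TPM in Setd2f/f libraries against 32.8 and 39.8 in Setd2D/D libraries, a ratio of 0.790. Polr2e, the shared subunit with the highest mean over the 4 libraries, was at 88.0 and 103 TPM in Setd2f/f libraries against 93.4 and 120 in Setd2D/D libraries. Its libraries overlapped, and its log2 change of 0.15 became -0.03 without Setd2D/D replicate 2. Polr2f was at 92.6 and 120 TPM in Setd2f/f libraries against 46.6 and 95.6 in Setd2D/D libraries, where the replicates differed 2.05-fold. Of the 5 shared subunits 3 were below 0 and 2 above, with a median log2 change of -0.33, which was -0.14 without Setd2D/D replicate 1 and -0.18 without Setd2f/f replicate 2.

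Polr2m, known as Gdown1, binds the polymerase and can make its activity depend on Mediator, and it is not a core subunit. It was the most abundant member, at 206 and 190 TPM in Setd2f/f libraries against 196 and 195 in Setd2D/D libraries. The libraries overlapped, and the limma log2 change was -0.02 with a 95% interval from -0.27 to 0.24. After rescaling the value lay between 0.01 and 0.04, and it was 0.04 without Setd2f/f replicate 1.

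**Figure D2:**
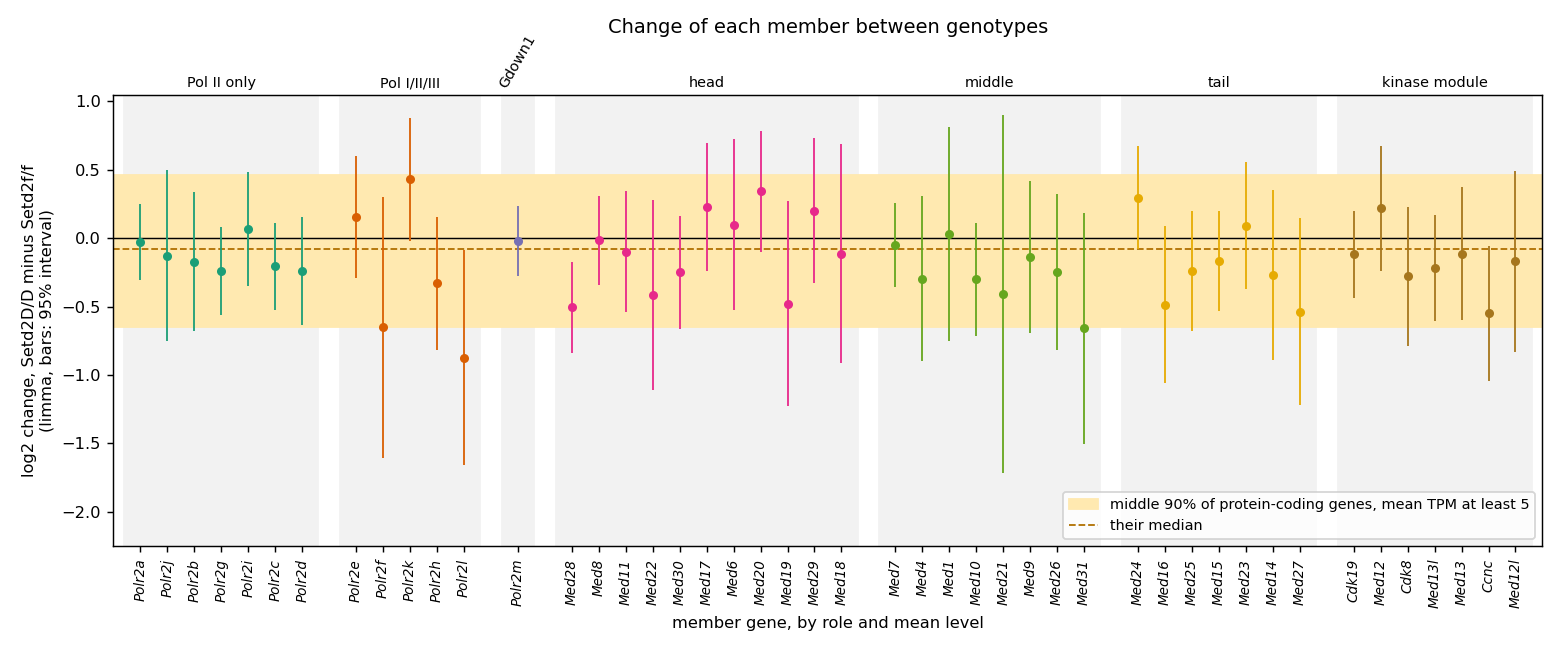
Limma log2 change of each member, Setd2D/D minus Setd2f/f, with its 95% interval; the yellow band holds the 5% to 95% range of protein-coding genes averaging 5 TPM or more and the dashed line is their median. Only the intervals of Polr2l, Med28 and Ccnc lie wholly below 0 without adjustment for the number of genes, and most members fall inside the band.

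In the Mediator head, Med28 had the smallest limma p of all members. Med28 (ENSMUSG00000015804, chromosome 5, 45520229 to 45529276) was at 101 and 97.2 TPM in Setd2f/f libraries against 74.9 and 64.6 in Setd2D/D libraries. The gap between the groups was larger than the spread within either, the ratio of the means was 0.704, and the log2 change was -0.50 (SE 0.13, limma adjusted p = 0.348). In the authors' deposited table it was -0.45 (FDR 0.153). By mean over the 4 libraries Med28 was the most abundant head subunit and Med18, with 11.0 and 8.06 TPM in Setd2f/f and 7.13 and 10.5 in Setd2D/D, the least abundant. The change of Med18 had no stable sign, at -0.11 over all libraries, 0.09 without Setd2f/f replicate 1 and 0.13 without Setd2D/D replicate 1.

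Other head subunits pointed in both directions. Med20, which pairs with Med18 in a movable part of the head, was at 25.6 and 22.9 TPM in Setd2f/f libraries against 33.2 and 28.9 in Setd2D/D libraries, a ratio of 1.28 (limma adjusted p = 0.516). Med19 was at 28.8 and 29.1 TPM in Setd2f/f libraries against 15.6 and 26.9 in Setd2D/D libraries, so that most of its lower mean came from Setd2D/D replicate 1. Without that library its log2 change was -0.11 in place of -0.48. Of the 11 head genes 4 were above 0 and 7 below, with a median log2 change of -0.10; Med17, Med20 and Med29 were wholly higher and Med19, Med28 and Med30 wholly lower. The other head subunits had changes of -0.42 (Med22), -0.25 (Med30), -0.10 (Med11), -0.02 (Med8) and 0.10 (Med6).

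The middle module leaned lower, by an amount that rested on Setd2D/D replicate 1. Med31 was at 9.95 and 9.41 TPM in Setd2f/f libraries against 4.37 and 7.51 in Setd2D/D libraries, a ratio of 0.614 (limma log2 change -0.66, adjusted p = 0.513). Its mean over the 4 libraries was the lowest of any member. Its change was -0.33 without knockout replicate 1 and -0.99 without knockout replicate 2. The authors' deposited table gives it the lowest mean log2 CPM of the members, 2.46, against 8.81 for Polr2a, the thinnest coverage by that measure. Med10 was at 36.1 and 37.0 TPM against 27.1 and 32.0, and another gene model on the opposite strand, Gm26819, covers 92.8% of its exon bases. Med4 was at 47.2 and 48.8 TPM in Setd2f/f libraries against 31.5 and 48.2 in Setd2D/D libraries. Without Setd2D/D replicate 1 the change of Med4 was 0.01 in place of -0.29.

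Med7, a hinge subunit and the most abundant of the middle, was at 61.2 and 62.5 TPM in Setd2f/f libraries against 58.7 and 61.0 in Setd2D/D libraries. The groups did not overlap, yet the ratio was 0.966, and the sign of its change of -0.05 turned after rescaling (0.003 to 0.02). Med1, which contacts nuclear receptors, and Med21 differed more between the 2 knockout libraries than between genotypes. Med21 was at 26.9 and 28.4 TPM in Setd2f/f libraries against 11.9 and 35.0 in Setd2D/D libraries, 2.94-fold apart. Med26, which can recruit elongation factors, had a change of -0.25 and Med9 one of -0.14. Over the 8 genes the median log2 change was -0.27, with 7 below 0 and 6 at their lowest in Setd2D/D replicate 1, and it was -0.10 without that library.

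In the tail, Med16 and Med27 were lower and Med24 higher in Setd2D/D. Med16 was at 41.3 and 46.3 TPM in Setd2f/f libraries against 37.1 and 25.7 in Setd2D/D libraries, a ratio of 0.717. By limma its adjusted p was 0.486, and in the authors' deposited table its value was -0.41 (unadjusted p 0.00424, the smallest among the members there, and FDR 0.103). Med27 was at 26.1 and 23.5 TPM against 13.4 and 20.9, a ratio of 0.692. Med24, the most abundant tail subunit, which lies next to Med16 in the complex, was at 71.3 and 75.8 TPM against 100.03 and 81.7, a ratio of 1.24 (limma adjusted p = 0.512). In the authors' deposited table the log2 fold change of Med24 was smaller, at 0.09 (FDR 0.8855). The limma changes of Med16, Med27 and Med24 each depended on 1 library for their size. That of Med16 went from -0.49 to -0.23 without knockout replicate 2. Without knockout replicate 1 Med27 went from -0.54 to -0.23 and Med24 from 0.30 to 0.15. A small nucleolar RNA gene inside an exon of Med24 on the same strand, Gm22059, was at 48.9 TPM in Setd2D/D replicate 1 and at 0 in the other 3 libraries. The other tail subunits had changes of -0.27 (Med14, the backbone of the complex), -0.24 (Med25), -0.17 (Med15) and 0.09 (Med23). Of the 7 tail genes 5 were below 0, with a median log2 change of -0.24, which was -0.10 without Setd2D/D replicate 1.

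By limma on TPM the kinase module was led by Ccnc (ENSMUSG00000028252, chromosome 4, 21727701 to 21759922). This gene encodes cyclin C, the activating partner of Cdk8 and Cdk19. Ccnc was at 19.0 and 19.1 TPM in Setd2f/f libraries against 13.2 and 12.2 in Setd2D/D libraries. The replicates lay close together and the groups apart, with a ratio of 0.667 and a log2 change of -0.55 (SE 0.19, limma adjusted p = 0.423). Leaving out any 1 library left the change between -0.60 and -0.50. In the authors' deposited table the log2 fold change of Ccnc was -0.17 (FDR 0.885). Tstd3, a gene on the opposite strand that shares 276 exon bases with Ccnc, was at 3.68 and 3.40 TPM in Setd2f/f libraries against 1.38 and 1.48 in Setd2D/D libraries.

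By limma on TPM the kinases themselves differed less than Ccnc. In the authors' deposited table the log2 fold change was -0.27 for Cdk8 (FDR 0.527) and -0.07 for Cdk19, against -0.17 for Ccnc. Cdk8 was at 38.6 and 35.1 TPM in Setd2f/f libraries against 34.9 and 26.1 in Setd2D/D libraries, which is 0.827 of the Setd2f/f mean (limma adjusted p = 0.625). Cdk19, its paralog and the more abundant kinase in all 4 libraries, was at 62.8 and 60.3 TPM against 58.2 and 55.1, a ratio of 0.920 (limma adjusted p = 0.747). Neither kinase passed the test, and the groups of Cdk8 were separated only by 35.09 against 34.85 TPM. The log2 change of Cdk8 was -0.28 over all libraries, -0.08 without knockout replicate 2 and -0.48 without knockout replicate 1. Med12, which activates the cyclin-kinase pair, was at 59.7 and 47.2 TPM in Setd2f/f libraries against 67.2 and 57.0 in Setd2D/D libraries, with overlap. Its paralog Med12l was at 9.01 and 8.62 TPM against 8.69 and 6.88. Med13, which joins the module to core Mediator, was at 24.4 and 20.2 TPM against 19.8 and 21.1, and its paralog Med13l at 31.7 and 31.1 against 26.1 and 27.5. Of these 4 only the libraries of Med13l did not overlap, at a ratio of 0.855 (limma adjusted p = 0.614), while the change of Med13 turned from -0.11 to 0.02 without Setd2f/f replicate 1.

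**Figure D3:**
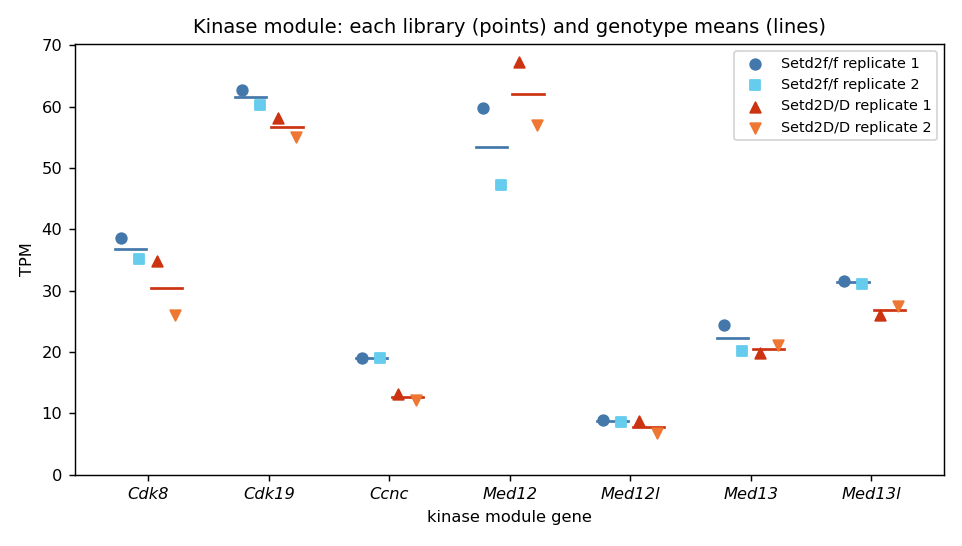
TPM of the 7 kinase module genes, with 1 point per library and a line at the mean of the 2 libraries of each genotype. Ccnc shows the clearest gap, from 19.0 and 19.1 TPM to 13.2 and 12.2, while the libraries of Med12, Med12l and Med13 overlap.

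Within each library the balance between paralogs was compared as a ratio of TPM. Cdk19 exceeded Cdk8 by 1.63 and 1.72 times in Setd2f/f and by 1.67 and 2.11 times in Setd2D/D. Med12l was at 0.151 and 0.183 of Med12 in Setd2f/f and at 0.129 and 0.121 in Setd2D/D, lower in both knockout libraries. Med13l exceeded Med13 by 1.30 and 1.54 times against 1.32 and 1.30 times. Differences of the mean log2 ratio were 0.17, -0.41 and -0.11, with 2-sided exact permutation p-values of 0.667, 0.333 and 1.0 (all 1.0 after Benjamini-Hochberg adjustment over the 3 ratios), where 2 libraries against 2 cannot go below 0.33. The first was -0.002 without Setd2D/D replicate 2 and the last turned to 0.02 without Setd2f/f replicate 2.

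Single members often differed between the 2 knockout libraries, but the members' median log2 change stayed below 0 whichever of the 2 was dropped. That median was -0.17 over the 4 libraries, -0.14 once knockout replicate 1 was dropped and -0.19 once its replicate 2 was. The median over all genes tested was also below 0 in these fits, at -0.063, -0.064 and -0.053. Setd2D/D replicate 1 was the lowest of the 4 libraries for 21 members, or 45.7%, against 33.3% of all genes tested (35.1% of the coding genes above), and Setd2D/D replicate 2 for 15 members, or 32.6%, against 27.2% (30.1%). The replicates of Setd2f/f differed by a median of 1.09-fold over the members and at most 1.44-fold, those of Setd2D/D by a median of 1.20-fold and at most 2.94-fold. In 10 members the Setd2D/D libraries differed by more than 1.5-fold, in 0 members the Setd2f/f libraries did, and for 2 members, Polr2l and Med31, the genotype means did. The wider knockout spread was not particular to the members. The standard deviation of the log2 ratio of the 2 Setd2D/D libraries was 0.455 over the members and 0.508 over coding genes. For the 2 Setd2f/f libraries it was 0.205 and 0.33. Both knockout libraries lay below the Setd2f/f mean for 28 members and above it for 6. Replicate 1 alone lay below it for 8 members and replicate 2 alone for 4. Shares over all genes for these counts are not given here. With the members in 3 classes by exon length, 7 of each class were lowest in replicate 1. The median log2 ratio of replicate 1 to replicate 2 was -0.19 in the class of shortest exons, -0.10 in the next and 0.04 in the class of longest exons. The Spearman correlation between exon length and that ratio was 0.063 over the 46 members and 0.074 over coding genes. For the ratio of the 2 Setd2f/f libraries it was 0.465 over the members and 0.147 over coding genes. These are descriptions over genes that share their libraries, and the part of length in the members' values was not tested. Between exon length and the log2 change between genotypes the correlation was 0.033 over the members.

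**Figure D4:**
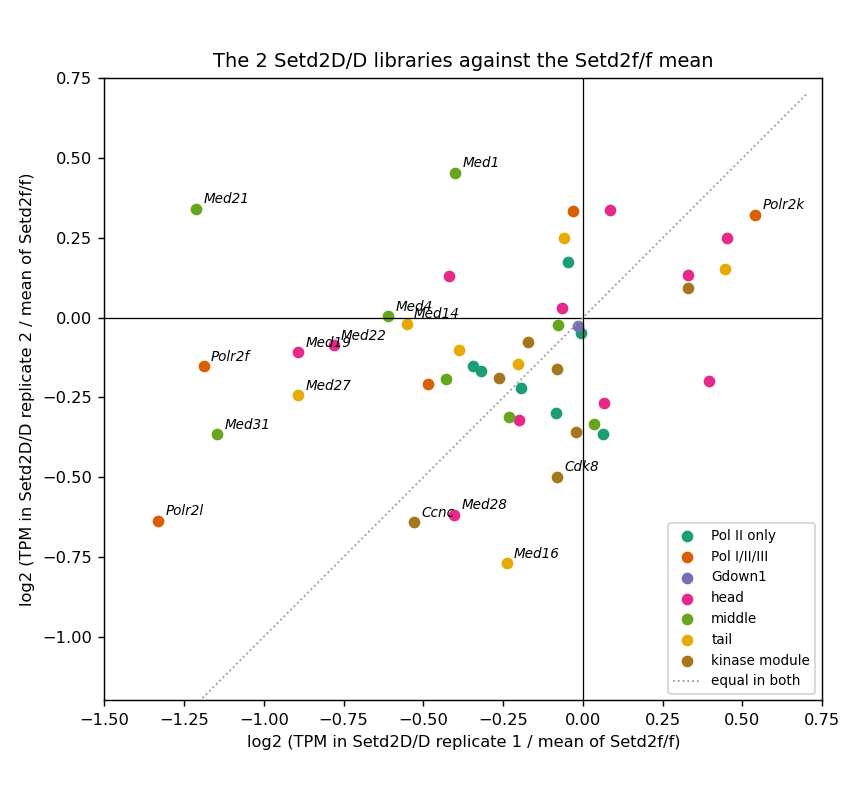
For each of the 46 members, the log2 ratio of TPM in Setd2D/D replicate 1 (x) and replicate 2 (y) to the mean of the 2 Setd2f/f libraries; the dotted line marks equal values. Ccnc and Med28 lie low in both libraries, Polr2l, Med31 and Polr2f are lower in replicate 1, and Med21 lies far below 0 in replicate 1 and above 0 in replicate 2.

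The TPM values and the authors' deposited table, 2 summaries of the same libraries, lay close together for most members. The log2 ratio of mean TPM lay within 0.1 of the deposited log2 fold change for 40 of the 46 members, and the sign was the same for 41. Ccnc had the widest gap, with -0.58 from TPM and -0.17 in the authors' deposited table, a difference wider than for 95.4% of 10092 protein-coding genes averaging 5 TPM or more. Med1 followed, at 0.09 from TPM and -0.22 in the authors' deposited table (wider than 91.5%). Med22, Med24 and Polr2b had gaps of -0.21, 0.21 and -0.19. TPM also depends on which transcript lengths reads are assigned to, and the 8 annotated transcripts of Ccnc are between 445 and 3484 bases long. Whether transcript assignment has a part in these gaps was not tested.

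**Figure D5:**
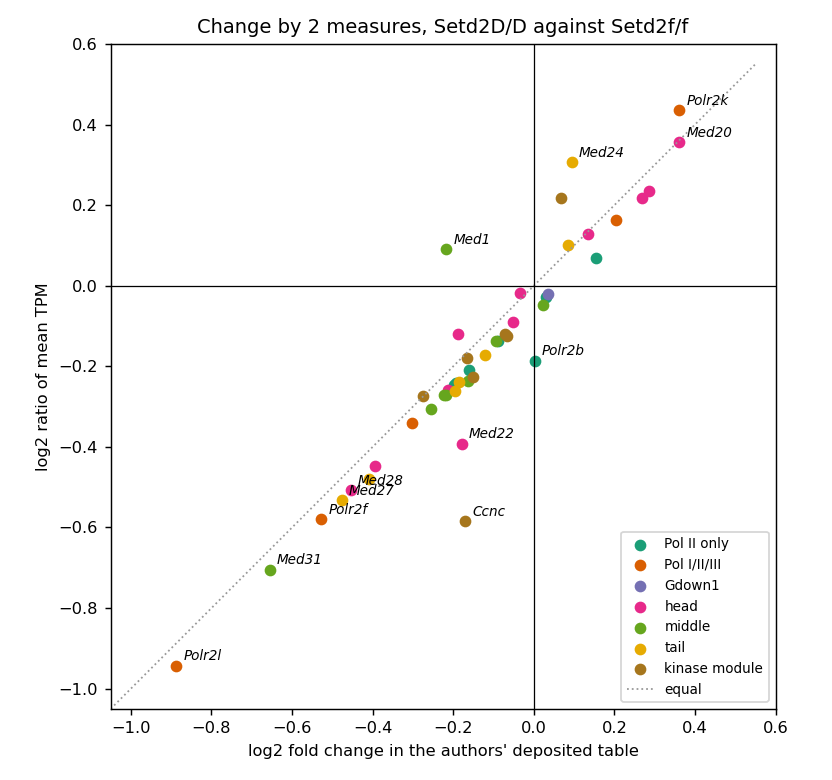
Log2 fold change of the members in the authors' deposited table (x) and log2 ratio of mean TPM (y), both Setd2D/D against Setd2f/f, with a dotted line of equality. Most points lie near the line, Ccnc and Med22 lie below it and Med1 and Med24 above it.

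The genes around the polymerase showed no call by limma either, where 0.0678% of all genes passed. Of all genes tested 16.8% were wholly higher and 27.6% wholly lower, for comparison with the counts of the 5 lists below. Of 18 general transcription factor genes, which place the polymerase at promoters, 10 were above 0 and 8 below (6 wholly higher and 5 wholly lower), with a median log2 change of 0.03. Gtf2h3, a TFIIH subunit, was at 44.9 and 39.97 TPM in Setd2f/f libraries against 24.2 and 27.8 in Setd2D/D libraries (limma adjusted p = 0.329). Of 15 TFIID genes 5 were above and 10 below (0 wholly higher and 4 wholly lower), with a median of -0.12, and Taf4a was at 29.6 and 29.8 TPM against 19.2 and 19.5 (limma adjusted p = 0.365). Over 18 genes for assembly of the polymerase and for phosphatases of its tail the median was -0.08 (2 wholly higher and 5 wholly lower), and Gpn2, an assembly GTPase, was at 16.7 and 17.3 TPM against 28.9 and 28.0 (limma adjusted p = 0.329).

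Polymerase I and III subunits gave medians of 0.01 over 8 genes and -0.06 over 11, with 2 and 1 genes wholly higher and 1 and 1 wholly lower. Polr1e was at 40.9 and 42 TPM in Setd2f/f libraries against 69.8 and 53.9 in Setd2D/D libraries (limma adjusted p = 0.404). Polr3k, at 34.3 and 35.5 TPM against 20.9 and 26.97, had an adjusted p of 0.423 by limma and an FDR of 0.0343 in the authors' deposited table. It was the 1 gene of these 5 lists past 0.05 there, where 3.15% of all rows were.

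Exons of 24 of the 46 members overlap those of another gene, in 10 members over more than 10% of the exon bases with 1 gene. The sources used here do not say whether reads were counted by strand, so reads of such pairs may not be separated. Tbcb, which covers 26.8% of the exon bases of Polr2i on the opposite strand, was at 37.8 and 47.2 TPM in Setd2f/f libraries against 69.3 and 45.2 in Setd2D/D libraries. Brip1os, which shares 7.4% of the exon bases of Med13, was at 39.8 and 37.2 TPM against 33.6 and 30.9.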

How the data were processed

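The authors deposited TPM values per gene for 4 libraries and a comparison table with a ratio (fold change), its log2, the mean log2 CPM, the F statistic (a score), and p-value and FDR columns. Cutadapt, RSEM, edgeR and mm10 are named, without roles, per the submitters' processing notes; the sources used here give no strand, filters or read totals. Fields split by a comma in a gene name were joined again (5 and 2 rows). The 14755 genes reaching 1 TPM in 2 or more libraries were transformed to log2(TPM + 1) and fitted with limma 3.58.1 in R 4.3.3 (genotype term, variance trend, Benjamini-Hochberg at 0.05), after the code was tested on simulated data. Coordinates are from GENCODE M21 (GRCm38, the build mm10 names). The groups came from sample titles. Members and lists were chosen with earlier results of these data known. Named members are Polr2a, Polr2b, Polr2m, the kinase module, and in each role group the highest and lowest mean TPM and the 3 smallest limma p-values; others were named after their values were seen. The assignment of Med19 and Med26 to Med30 to modules varies between sources. Alternatives were pseudocounts 0.1 and 0.5, no filter or TPM 5, 3 rescalings, other variance moderation, a replicate block, and leaving out 1 library at a time.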

Additional observations from a re-analysis of the deposited data

How the results depend on the processing

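With 2 libraries a group, no member passed limma under any of the 14 alternative fits, where the smallest adjusted p of a member was between 0.181 (without Setd2D/D replicate 2, where the lone library is taken to be as variable as the other group) and 0.949 (without Setd2f/f replicate 1), and 0 members passed an FDR of 0.01 or 0.1 in the authors' deposited table. The counts of genes called over the whole table were 3 higher and 7 lower; they were 1 and 2 with a pseudocount of 0.1, 0 and 0 without a filter and 0 and 0 whichever library was left out, and without the variance trend 16 were lower. With the replicate block they were 0 and 0, and no member's call changed; same-numbered libraries share only a number, and the correlation of their deviations from the genotype means was 0.041. The members' median was -0.12 after trimmed-mean scaling, -0.11 after median-of-ratios scaling and -0.12 after quantile normalization, which moved the median of all genes by 0.049 to 0.060. After median-of-ratios scaling the medians were -0.04 for the head and -0.12 for the kinase module, and after quantile normalization the head was at -0.03. The general factors were at 0.081, 0.087 and 0.095 after the 3 rescalings, assembly factors at -0.024 and -0.014 after the last 2, and Pol III genes at 0.03 after quantiles. After the 3 rescalings in that order Polr2a was at 0.026, 0.032 and 0.018, Polr2m at 0.034, 0.041 and 0.006, and Med7 at 0.003, 0.010 and 0.017. Leaving out each library in turn gave 7 to 10 members wholly higher and 26 to 29 wholly lower, where fewer libraries are more easily separated. Shares over all genes for these counts are not given here. With a library left out, medians were -0.249 to 0.015 for the Pol II-only subunits, -0.483 to -0.139 for the shared subunits and -0.402 to -0.104 for the middle. They were -0.30 to -0.10 for the tail, -0.232 to -0.079 for the kinase module and -0.013 to 0.079 for general factors. For TFIID they were -0.357 to -0.064, for assembly factors -0.14 to -0.043 and for Pol I -0.044 to 0.128. For single genes the ranges were -0.067 to 0.015 for Polr2a, -0.392 to 0.051 for Polr2b, -0.027 to 0.334 for Polr2e, -0.077 to 0.040 for Polr2m, -0.361 to 0.133 for Med18, -0.594 to 0.005 for Med4 and -0.245 to 0.019 for Med13. Members that kept their sign but moved by over 1.5 times included Polr2d (-0.337 to -0.145), Polr2h (-0.483 to -0.178), Med10 (-0.416 to -0.186), Med12 (0.051 to 0.385) and Med12l (-0.317 to -0.018). The paralog differences ran from -0.002 to 0.34 for Cdk19 to Cdk8 and from -0.233 to 0.016 for Med13l to Med13. The cause of these movements was not tested.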
